A study of Mus musculus with 4 samples.

Results

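Of 8 genes of the naive pluripotent state, 6 had a METTL3 peak within 100 kb of the gene body in at least 1 of 2 ChIP-seq replicates, and 4 had a peak listed in both. Over all 21883 protein-coding genes the shares were 5.05% and 2.25%. The 8 genes were proposed with results of these data known, so these shares are a description with no test. The 4 were Esrrb, Tfcp2l1, Zfp42 and Prdm14. Tbx3 had peaks in both lists that did not overlap, Dppa5a had a peak in replicate 1 alone, and no peak was listed within 100 kb of Nr5a2 or Nr0b1. Their peaks were taken as all rows of the 2 deposited lists whose centre lay within 100 kb of the gene body on mm10. These were 14 of 634 rows, 7 of 353 in replicate 1 (1.98%) and 7 of 281 in replicate 2 (2.49%).

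The libraries came from wild-type C57BL/6 mouse embryonic stem cells grown in serum with LIF and the kinase inhibitors CHIR99021 and PD0325901. All 4 libraries share this genotype and culture: 2 immunoprecipitations (IP) with a rabbit antibody to METTL3 and 2 inputs, which are sonicated chromatin that saw no antibody. The IP libraries held 22246555 and 21793898 tags, and the inputs about 24800000 and 14900000. Peaks of an IP were called over the input with the same replicate number. Whether the replicates are separate cultures is not in the labels, and their spread may be only technical. No METTL3-depleted cells and no control antibody were analysed here. Peak lists hold no expression values, so the labelled cell type was not checked against marker genes.

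METTL3 is the catalytic subunit of the nuclear complex that methylates adenosine in RNA, and it can be recovered on chromatin. Naive pluripotency is the state of the preimplantation epiblast, which mouse embryonic stem cells keep when LIF signals through STAT3, GSK3 is inhibited by CHIR99021 and MEK by PD0325901. A group of transcription factors maintains it. ESRRB, an orphan nuclear receptor, acts downstream of GSK3 inhibition, and TFCP2L1, a grainyhead-family factor, downstream of LIF and GSK3 inhibition. TBX3 is a T-box factor linked to LIF signalling, NR5A2 an orphan nuclear receptor, and NR0B1 (DAX1) a nuclear receptor that lacks the usual DNA-binding domain. PRDM14 represses FGF signalling and DNA methyltransferase genes. Zfp42 encodes REX1, a zinc finger protein widely used as a marker of the naive state, and Dppa5a a small RNA-binding protein of pluripotent cells.

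Promoter sequences are given first because no member peak reached one where a window was given. Windows from 250 bases before to 50 after the gene start were given by RefSeq (GRCm38.p6, the mm10 assembly) for 5 of the 8 genes, with 2 starts each for Esrrb and Nr5a2. No peak of either list overlapped any of these 7 windows. Over all genes with such a window, 6 of the 353 peaks of replicate 1 (1.70%) and 3 of the 281 of replicate 2 (1.07%) overlapped one. Tfcp2l1 and Zfp42 are printed because their shared peaks lay upstream of the start. The 250 bases before the start run 5′ to 3′ on the gene's strand, at chr1:118627695-118627944 (plus strand) and chr8:43307010-43307259 (minus strand). Capitals mark a TATA element, TATAAAA, in Tfcp2l1, and a nuclear receptor element, TCAAGGCCA, followed by an octamer, ATTTGCAT, in Zfp42.
Tfcp2l1: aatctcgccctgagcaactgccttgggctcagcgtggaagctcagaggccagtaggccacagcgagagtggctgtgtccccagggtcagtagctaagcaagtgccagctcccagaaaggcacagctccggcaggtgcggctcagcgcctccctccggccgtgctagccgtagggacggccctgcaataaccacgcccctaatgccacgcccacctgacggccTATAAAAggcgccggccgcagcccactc
Zfp42: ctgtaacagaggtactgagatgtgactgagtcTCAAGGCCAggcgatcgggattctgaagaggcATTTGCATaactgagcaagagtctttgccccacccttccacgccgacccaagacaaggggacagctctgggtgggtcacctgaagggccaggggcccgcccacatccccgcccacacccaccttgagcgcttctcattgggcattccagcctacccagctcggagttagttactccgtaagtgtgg

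The Zfp42 nuclear receptor element, of a kind that NR5A2 can bind, began 218 bases before the start and the octamer, an element of POU factors such as OCT4, 186 bases before it. The TATA element of Tfcp2l1 began 28 bases before the start used for its promoter window, 118627945. The Tfcp2l1 gene body used for peak distances begins at 118627923, a position inside the printed bases. All 3 elements lay on the gene's own strand, and these motifs were chosen after the sequences had been seen. A related element bound by ESRRB, TCAAGGTCA, was in none of the 7 windows. Among 32851 upstream windows of 250 bases, 4.98% held TATAAAA, 1.60% ATTTGCAT, 0.511% TCAAGGCCA and 0.387% TCAAGGTCA, each counted on both strands. G and C made up 65.2% of the Tfcp2l1 window and 58.4% of the Zfp42 window, against a median of 52.4%. A match describes these letters alone, and METTL3 was not mapped to them: the Tfcp2l1 peaks lay 2.06 and 2.15 kb from the whole promoter window of that gene, and the Zfp42 peaks 13.5 kb from theirs.

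**Figure D1:**
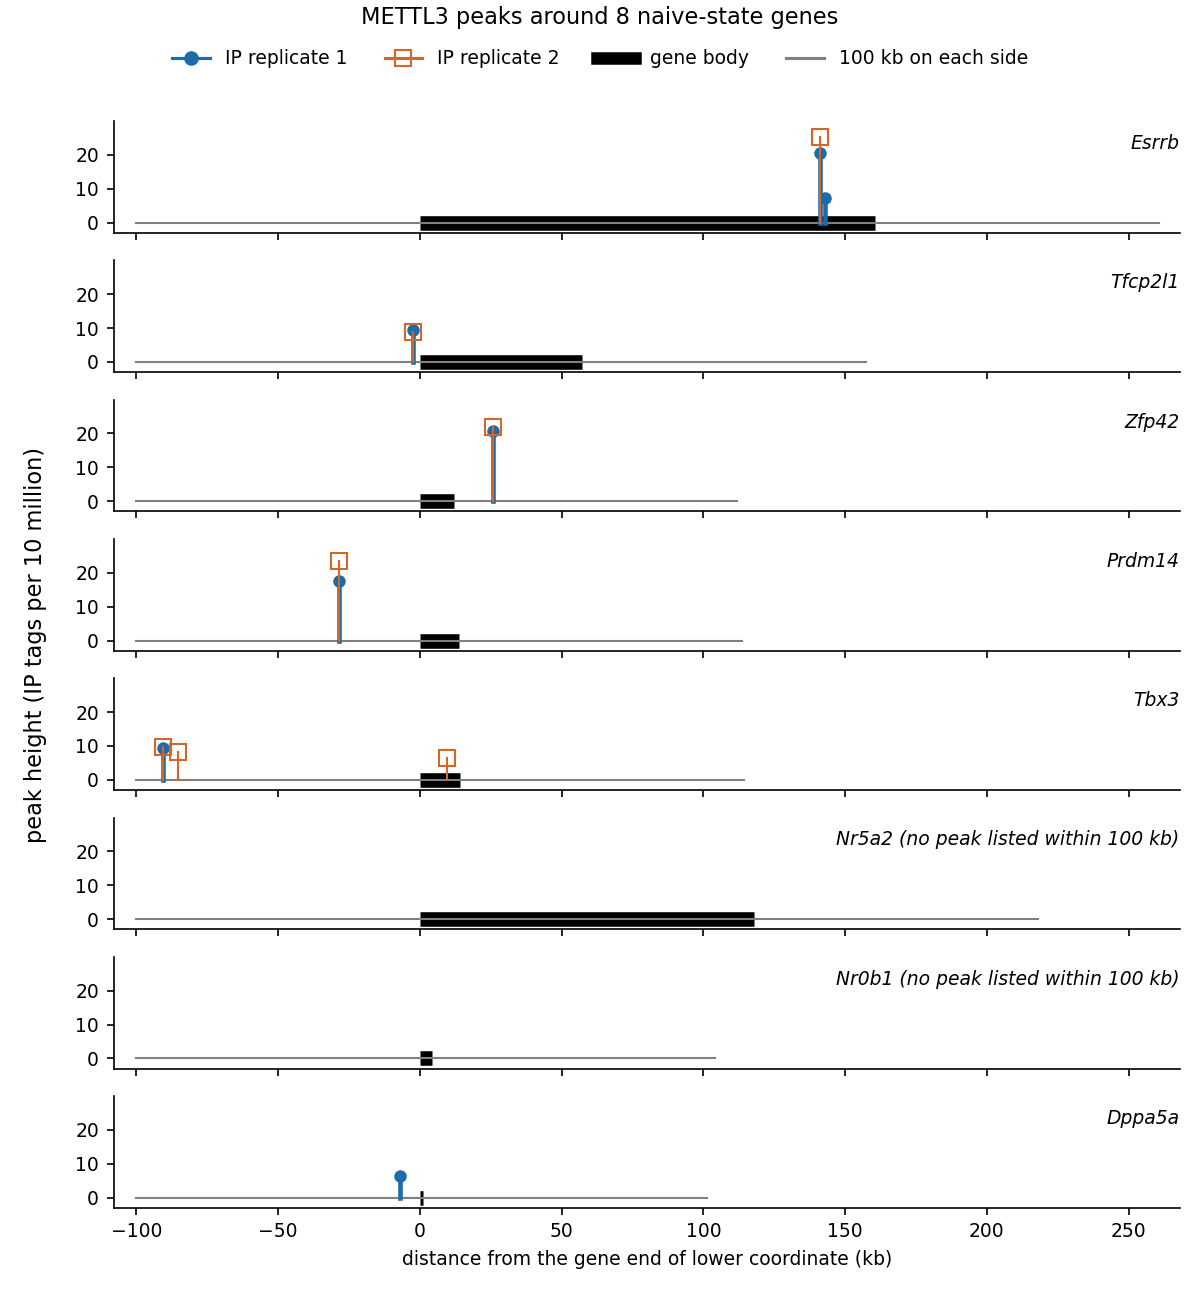
Position and height of every METTL3 peak within 100 kb of the 8 genes. The horizontal axis is the distance in kb from the gene end of lower coordinate, the vertical axis is the peak height in IP tags per 10000000, circles are IP replicate 1, open squares IP replicate 2, black bars gene bodies, and the grey line the 100 kb on each side. Esrrb, Zfp42 and Prdm14 hold the tall pairs, Tbx3 has a pair near the far edge of its window, and Nr5a2 and Nr0b1 have none.

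Inside Esrrb a tall peak was listed in both replicates. The gene spans chr12:86361117-86521628 on the plus strand (161 kb), and the peak lay at 86501759 to 86501929 in replicate 1 and 86501793 to 86501961 in replicate 2, with centres 33 bp apart. It stood 141 kb downstream of the first annotated start and 80.2 kb downstream of the second. Exons and introns were not told apart here. Its height, the IP tags per 10000000 sequenced, was 20.7 in replicate 1 and 25.2 in replicate 2, a mean of 22.9 ± 3.18 (SD, n = 2). On the same scale the inputs were at 1.21 and 2.69. Both IP values were thus far above both input values. They came from 46 IP and 3 input tags in replicate 1 (17.1-fold, 95% interval 5.50 to 86.0) and from 55 IP and 4 input tags in replicate 2 (9.38-fold, 3.46 to 35.6).

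A smaller peak of replicate 1 stood 2.70 kb further into Esrrb (86504463 to 86504633). Its height was 7.19 against 1.61 in input, from 17 IP and 4 input tags (4.74-fold, 95% interval 1.55 to 19.4). It ranked 208 of 353 by height and had a fold of 4.38 over the surrounding 10 kb, which was above that of only 2.55% of its list. Replicate 2 listed no peak there, and the tags of replicate 2 at that position were not analysed here, so a difference between the replicates was not tested. The deposited total tags and normalised tag count of this peak differ by 1 tag, as at 25 peaks of replicate 1; the fold uses the total and the height the normalised count.

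Zfp42 had, among these genes, the peak that stood out furthest from its surroundings. The gene lies at chr8:43295067-43307009 on the minus strand (11.9 kb), and the peak was upstream of its start, at 43320684 to 43320854 in replicate 1 and 43320672 to 43320840 in replicate 2. The centres were 13 bp apart and 13.8 and 13.7 kb from the gene. Heights were 20.7 and 22.0, or 21.4 ± 0.919 (SD, n = 2), against 0.806 and 2.02 in input. With 46 and 48 IP tags, the replicates were nearly equal in IP, while the inputs held 2 and 3 tags. The fold over input was 25.6 in replicate 1 (95% interval 6.71 to 218) and 10.9 in replicate 2 (3.52 to 54.8), intervals that overlap. Over the surrounding 10 kb, the caller's fold was 30.1 in replicate 1 and higher still in replicate 2, above that at 97.5% of the peaks of replicate 1 and 97.9% of those of replicate 2. No other protein-coding gene was closer than Triml2, at 127 kb.

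At Prdm14 a tall shared peak lay outside the gene (chr1:13113428-13127163, 13.7 kb), 28.4 kb below its lower end. It was listed at 13084985 to 13085155 and 13084961 to 13085129, with centres 25 bp apart. Heights were 17.5 in replicate 1 and 23.4 in replicate 2, a mean of 20.4 ± 4.17 (SD, n = 2). The inputs went the other way, at 3.22 and 1.35. Replicate 1 therefore had the lowest fold of the 4 shared sites in that list, 5.44 (39 IP and 8 input tags; 95% interval 2.50 to 13.5), and replicate 2 the highest of its list's 4, 17.4 (51 and 2 tags; 4.57 to 147). Closer to the peak than Prdm14 was the long non-coding RNA gene Gm39592, 5.62 kb away. The next protein-coding gene, Ncoa2, was 54.0 kb away on the far side of Prdm14.

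Tfcp2l1 had the peak nearest to a gene start, and it was of ordinary height. The gene lies at chr1:118627923-118685168 on the plus strand (57.2 kb). The peak was upstream, at 118625546 to 118625716 in replicate 1 and 118625459 to 118625627 in replicate 2, 2.29 and 2.38 kb before the gene. Heights were 9.44 and 8.72, or 9.08 ± 0.509 (SD, n = 2), against 0.806 and 1.35 in input. IP exceeded input in both replicates, by 11.7-fold on 21 and 2 tags (95% interval 2.86 to 103) and 6.48-fold on 19 and 2 tags (1.56 to 57.4). The 2 calls overlapped by 82 bp, with centres 88 bp apart. That is wide for these data: over all 195 shared peaks the median was 27.0 bp, and 8 had centres at least as far apart. Clasp1, the next protein-coding gene, was 16.2 kb from the peak of replicate 1.

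**Figure D2:**
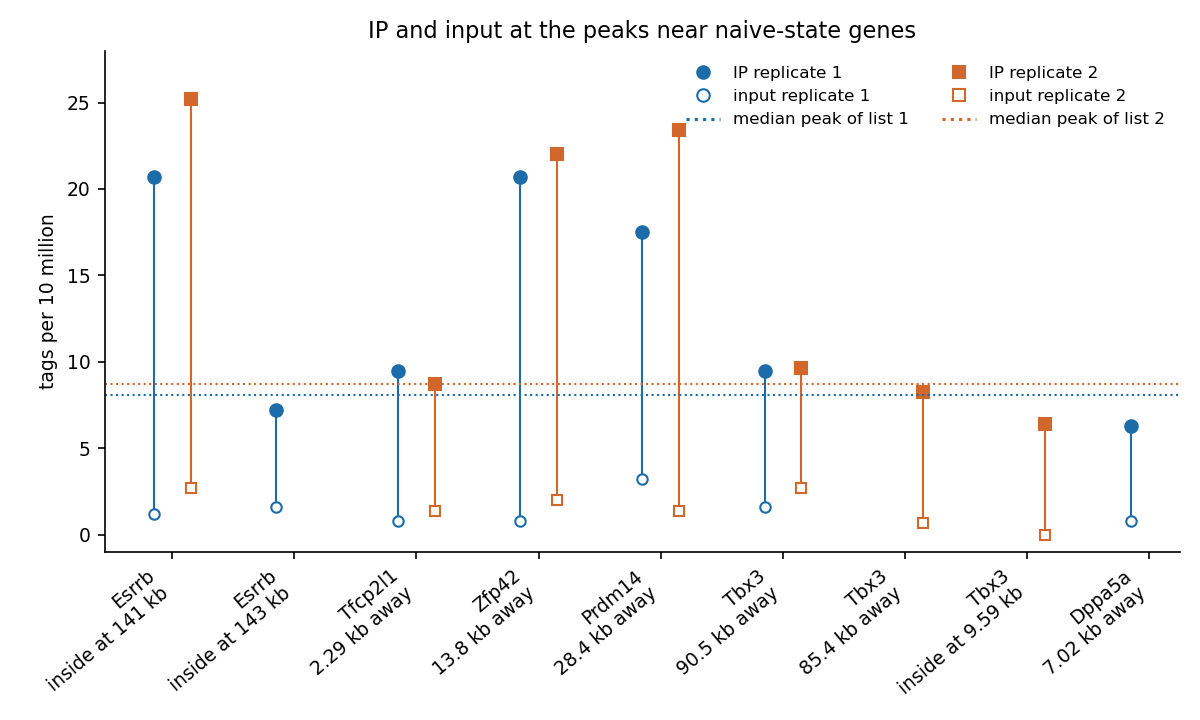
IP and input at each site near the 8 genes, in tags per 10000000. Filled symbols are IP and open symbols input, circles replicate 1 and squares replicate 2, joined by a line within a replicate, and dotted lines mark the median peak height of each list. Esrrb, Zfp42 and Prdm14 lie between 17.5 and 25.2 in both replicates, and the other sites between 6.29 and 9.64, near the medians of 8.09 and 8.72.

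Around Tbx3 the lists agreed on a neighbourhood but not on a peak. The gene lies at chr5:119670534-119684724 (14.2 kb). Replicate 1 listed a peak at 119579998 to 119580168, 90.5 kb below its lower end, and replicate 2 one at 119579756 to 119579924, with a centre 243 bp away and no shared base. Their heights were 9.44 and 9.64, from 21 IP tags in each library, against 4 input tags in each (5.85-fold, 95% interval 1.98 to 23.5, and 3.58-fold, 1.21 to 14.3). So the tags were alike in number and the called centres were not. Both lay within the long non-coding RNA gene AW549542 (119570129 to 119580358), although Tbx3 was their nearest protein-coding gene. The share of tags on the expected side of the centre, the caller's focus ratio, was 0.568 in replicate 1, where only 0.567% of the list was lower, and 0.684 in replicate 2, where 7.12% was lower.

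Replicate 2 listed 2 more peaks near Tbx3 that replicate 1 did not. The first was 5.28 kb closer to the gene than the replicate 2 peak of the pair (119585033 to 119585201), with a height of 8.26 against 0.673 in input, from 18 IP tags and 1 input tag (12.3-fold, 95% interval 1.94 to 511). The other lay inside the gene (119680043 to 119680211), 9.59 kb from its lower end, with a height of 6.42. It had 14 IP tags, and the input had none. Against a floor of 3 input tags, and without error on the IP side, the IP was at least 3.18-fold higher; the exact 95% interval began at 2.26. This site was among the weaker calls, at rank 226 of 281 by height and with a local fold of 5.25 that exceeded 2.85% of the list.

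Dppa5a had a peak in replicate 1 alone. The gene is short (chr9:78367052-78368199, 1.15 kb) and has 9 other protein-coding genes within 100 kb, more than any other of the 8. The peak lay 7.02 kb below its lower end (78359951 to 78360121), with a height of 6.29 against 0.806 in input, from 14 IP and 2 input tags (7.81-fold, 95% interval 1.79 to 70.8). It was the lowest of the member peaks and ranked 262 of 353. Gsta2, the next protein-coding gene, was 12.8 kb away. RefSeq lists pseudogene copies of the gene, Dppa5b and Dppa5c, and whether tags at the peak could be placed uniquely was not tested. In replicate 2 the nearest listed peak was 3281 kb from the gene.

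Nr5a2 and Nr0b1 had no peak in their windows in either list. Nr5a2 spans 118 kb (chr1:136842562-136960448), more than any of the 8 except Esrrb, and its nearest peak was 458 kb away in both lists, a shared peak of 13.9 and 12.4. Nr0b1 (chrX:86191775-86195947) had its nearest peak 1138 kb away, also shared, of 6.29 and 9.18. A gene with no listed peak may still have tags below the caller's threshold of 14, or an excess that was dropped on comparison with input. Whether a lower signal could be detected at this depth was not tested, and tags outside the listed peaks were not analysed here. No peak lay just outside a window: the nearest was 296 kb from Tbx3, a peak of 7.64 in replicate 1 alone. Inside the windows, the farthest were the Tbx3 peaks at 85.4, 90.5 and 90.7 kb, near the edge. A window of 50 kb held 11 of the 14 member peaks.

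**Figure D3:**
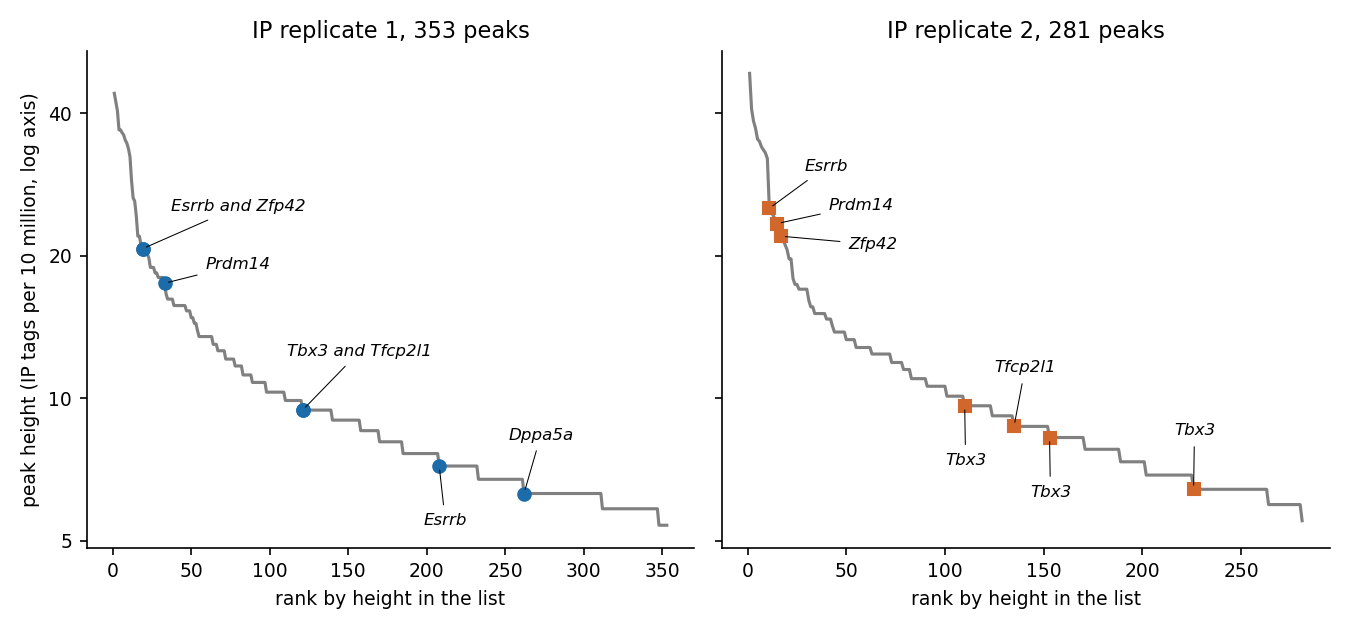
Height of all peaks by rank in each list, with the peaks near the 8 genes marked and named. The vertical axis is IP tags per 10000000 on a log axis, and the horizontal axis is the rank, the tallest peak being first. In both lists 3 marked peaks lie at or above 17.5 and the other 4 lie between 6.29 and 9.64.

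By height, Esrrb, Zfp42 and Prdm14 were among the tallest sites of both lists. Esrrb and Zfp42 shared rank 19 of 353 in replicate 1, and ranked 11 and 17 of 281 in replicate 2. Prdm14 ranked 33 and 15. So 3 of the 7 member peaks in each list (42.9%) reached the height of the peak ranked 35 in replicate 1 (16.2) and 28 in replicate 2 (17.0), against 10.8% and 10.7% of all peaks. They were the same 3 sites in both lists, all shared, and 19.0% and 15.4% of all shared peaks reached these heights. By mean height over both replicates, the order among 195 shared peaks was Esrrb 14, Zfp42 17, Prdm14 20 and Tfcp2l1 119. The first 3 of these differed from each other by less than the largest of their own SDs between replicates, and Tfcp2l1 was below all 3 in both replicates.

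Over all 7 peaks of a list, the medians were close to those of all peaks. The median height of the 7 member peaks was 9.44 in replicate 1 and 9.64 in replicate 2, against 8.09 and 8.72 over all peaks and 10.3 and 10.1 over the shared ones. The median fold over input was 7.81 and 10.9 against 8.18 and 10.2, and the median focus ratio 0.800 and 0.786 against 0.815 and 0.818. In each list 4 of the 7 member peaks were shared (57.1%), against 55.2% and 69.4% of all peaks. Ranked by the caller's fold over input, the order was another: the Esrrb peak was 71 of 353 and 179 of 281, Zfp42 41 and 131, Prdm14 255 and 80, and Tfcp2l1 128 and 219. The ranks of these 4 sites rest on 2 to 8 input tags per peak. Of all peaks, 23 of 353 in replicate 1 and 62 of 281 in replicate 2 had no input tag. Their deposited folds use a stand-in for the missing input, and they count in the ranks and the medians of fold.

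No difference in height beyond counting error was detected between the 2 IP libraries at the 4 shared sites. Replicate 2 over replicate 1, per tag sequenced, was 1.22 at Esrrb (95% interval 0.810 to 1.85), 1.07 at Zfp42 (0.696 to 1.63), 1.33 at Prdm14 (0.863 to 2.08) and 0.924 at Tfcp2l1 (0.470 to 1.80). In the exact conditional binomial test, two-sided, the smallest p of the 4 was 0.206 at Prdm14, and the Benjamini-Hochberg adjusted p over all 195 shared peaks was 1.00 for each. The test called 0 of the 195 shared peaks (0%), with 4 at an unadjusted p under 0.05, none of them near these genes. The test sets 1 library against 1 library of the same condition, at peaks already listed in both. Its p-values and intervals cover counting error only, and the intervals leave room for differences in either direction at each of the 4 sites.

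**Figure D4:**
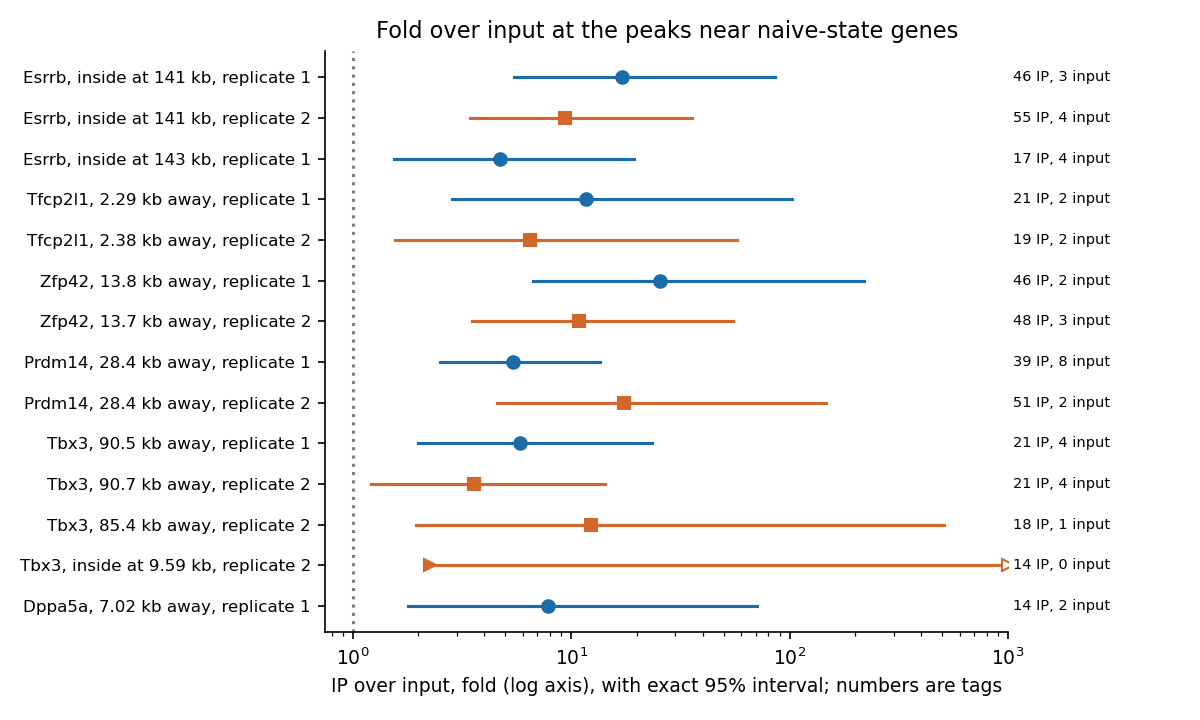
IP over input at each of the 14 member peaks, as a fold with its exact 95% interval on a log axis. Circles are replicate 1 and squares replicate 2, the tags behind each fold are at the right, and the triangle at the Tbx3 peak with no input tag marks the lower bound of 2.26. All 14 intervals lie above 1, as the peaks were called for an excess over input, and the inputs behind them held 0 to 8 tags.

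Set beside all protein-coding genes, more of the 8 had a peak nearby. Of 21883 protein-coding genes, 5.05% had a peak of either list within 100 kb, against 6 of 8 (75.0%) here. For replicate 1 it was 4.16% against 6 of 8, for replicate 2 3.24% against 5 of 8, and for shared peaks 2.25% against 4 of 8. Inside the gene, 0.370% of all genes had a shared peak, as Esrrb did, and 0.777% a peak of either list, as Esrrb and Tbx3 did. The median length of the 8 genes was below the 17.2 kb of all protein-coding genes, but their lengths were uneven. Esrrb (161 kb), Nr5a2 (118 kb) and Tfcp2l1 (57.2 kb) were longer than that median, and the rest of the 8 were shorter. Genes of matched length were not compared, so a part of gene length in these shares was not tested. The 8 genes were proposed with results of these data known, so the shares are a description with no test.

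Other pluripotency genes were counted by the same rule, by which 5.05% of all protein-coding genes had a peak of either list and 2.25% a shared one. Of 20 further naive or ground state genes, 6 had a peak of either list and 4 a shared one: Klf4, Klf5, Myc and Tet2, the last inside the gene. Tet2, which encodes an enzyme that oxidises methylated cytosine, had the tallest of these, with heights of 33.7 and 48.6. The Myc peak (22.4 kb away) was at 24.3 and 16.1, and the Klf5 peak (23.2 kb away) at 20.7 and 12.4. Klf4, a transcription factor downstream of LIF, had 3 shared peaks 49.6, 51.6 and 62.6 kb away, with heights of 7.80 to 12.6. Of 6 general pluripotency genes, 2 had a peak, and Sox2 had a shared one 93.0 kb away (15.7 and 24.3). Genes of the formative or primed state, into which naive cells pass, were not without peaks: 3 of 12 had one, and Foxd3 (20.1 kb away, heights of 36.9 and 34.0) and Sall2 (13.5 kb away, 13.5 and 11.5) had a shared one. The Foxd3 peak was taller than any near the 8 naive-state genes in both replicates. Like the 8 genes, these lists were chosen with earlier results of these data known, and differences between them were not tested.

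**Figure D5:**
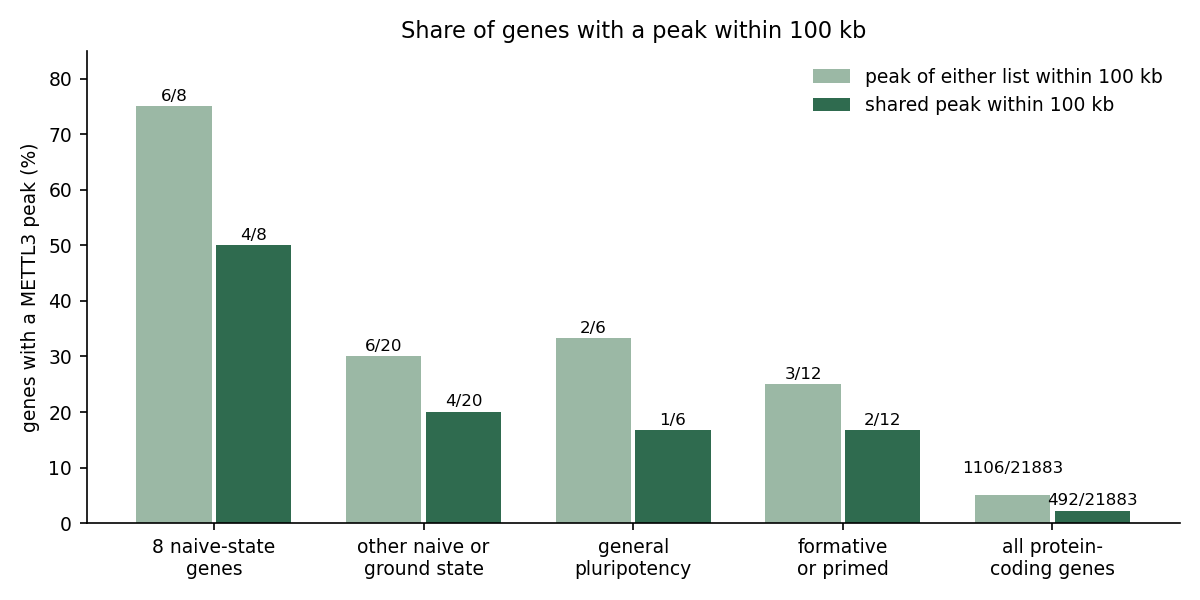
Percentage of genes with a METTL3 peak within 100 kb, for the 8 naive-state genes, 3 other lists of pluripotency genes and all protein-coding genes. Pale bars count a peak of either list and dark bars a shared peak, with the number of genes above each bar. The 8 genes stand at 6 of 8 (75.0%) and 4 of 8, the 3 other lists between 16.7% and 33.3%, and all protein-coding genes at 5.05% and 2.25%.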

How the data were processed

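METTL3 ChIP-seq peak lists of 2 IP libraries were used. Per the submitters' processing notes, CASAVA, Trimmomatic 0.38, Bowtie 1.2.2, HOMER and the build mm10 were used; how tags were aligned is otherwise not given in the sources used here. Per the file headers, HOMER findPeaks (factor style) called each list at a false discovery rate of 0.001, with a threshold of 14 tags (the tags counted here go down to 12 in both lists), a fold of at least 1 and a Poisson p of 0.0001 over input and over 10 kb, and at most 1 tag per position.

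Normalised tag counts, as deposited, are a signal per 10000000 tags. Deposited total tags are a plain count for replicate 1; for replicate 2, whose input was shallower, they are a signal scaled to it. The authors' focus ratio is a fraction of tags. The findPeaks score, the fold (a ratio) and the p-value are the authors' own values per peak, per the file headers, used within a list only.

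Input tags, and the IP tags of replicate 2, were recovered as whole tags by dividing by the value of 1 tag (largest deviation 0.0733 tags). Genes came from RefSeq (GRCm38.p6), positions are as deposited, and shared peaks overlap by at least 1 bp. Folds have exact conditional binomial 95% intervals with library totals as offsets, which cover counting error only, and 3 tags replaced an input of 0 for a floor. Heights of all shared peaks were compared between libraries with the exact binomial test (SciPy 1.17.1, threshold 0.05, Benjamini-Hochberg). The test was tried on simulated tags with counting error alone and with changes larger than the ratios seen at the shared member peaks. Changes as small as those ratios were not simulated. Alternatives were other windows, overlap rules and thresholds, and leaving out a replicate. Every peak near the 8 genes is named, with its nearest protein-coding gene; genes of the other lists are named only where they had a shared peak. The members, lists and window were chosen with earlier results of these data known.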

Additional observations from a re-analysis of the deposited data

How the results depend on the processing

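The count of 6 genes with a peak held within 1.5 times under all 9 alternatives, from 5 to 6. Within 20 kb it was 5, without Prdm14, and with a deposited fold of at least 8 or at least 20 IP tags it was 5, without Dppa5a. The count of 4 genes with a shared peak ran from 2 to 5. With a deposited fold of at least 8 in both lists it was 2, Esrrb and Zfp42, since Prdm14 and Tfcp2l1 passed in 1 list each. Within 20 kb the shared count was 3, without Prdm14. When at least 50% of each peak had to overlap, or with 20 IP tags in both lists, it was 3, without Tfcp2l1. With centres within 500 bp it was 5, with Tbx3. The 14 peaks became 8 with a deposited fold of at least 8, and 7 without either replicate, an alternative added after the data were seen. The 8 include the Tbx3 peak inside the gene, whose input had no tag. Its deposited fold was 19.1, but against the floor of 3 input tags it was 3.18. Subtracting scaled input lowered the mean height at all 4 shared sites. Zfp42 went from 21.4 to 19.9 and Tfcp2l1 from 9.08 to 8.00, by more than their SDs of 0.919 and 0.509. Esrrb went from 22.9 to 21.0 and Prdm14 from 20.4 to 18.2, which was within their wider SDs of 3.18 and 4.17. No replicate difference was called at the 4 sites with other offsets or the chi-square test. Input depth of 0 to 8 tags per peak limits the folds. No paired analysis was possible because the test that was run sets the 2 IP replicates against each other. IP and input of the same number could be paired, but that difference was given within each replicate and not tested over replicates, since it was used to call the peaks.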
